A study of Homo sapiens with 5 samples.

Results

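The nuclear-encoded genes of the respiratory chain were followed through human brain organoids before and after transplantation into the mouse brain. Members were the human genes whose symbol begins with NDUFA, NDUFB, NDUFC, NDUFS, NDUFV, UQCR, COX4, COX5, COX6, COX7, COX8, ATP5F1, ATP5M or ATP5P, together with SDHA, SDHB, SDHC and SDHD. They numbered 95 of the 32732 genes listed in both annotations used for these libraries, with antisense and read-through symbols left out. The rule uses symbols and no measured value. Complex I held 26 NDUFA, NDUFB and NDUFC genes and 11 NDUFS and NDUFV genes, and 8 NDUFAF assembly factors also carried the NDUFA prefix. Complex II held 4 members, complex III 9, complex IV 19 (with NDUFA4 and NDUFA4L2, which are placed there by function) and ATP synthase 18.

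Brain organoids were derived from H9: AAVS-ChR2-EYFP, a wild-type human embryonic stem cell line that expresses a light-gated channel and a fluorescent protein. D0 was a pool of organoids on the day of transplantation, at day 42 of culture. The other 4 libraries were grafts recovered from the hippocampus (HIP) or prefrontal cortex (PFC) of immunodeficient SCID-Beige mice at 2 or 4 months post transplantation (2MPT, 4MPT), named HIP_2MPT, PFC_2MPT, HIP_4MPT and PFC_4MPT. Each condition was 1 droplet library from 1 cell line, with the animals of a condition pooled, so the HIP and PFC libraries of a stage served as its 2 replicates and D0 had none. D0 and grafts were thus dissociated with different enzymes, and were counted with different Cell Ranger releases against different annotations. Grafts were also older than D0, by the 2 or 4 months after transplantation. These differences, age among them, cannot be told apart from grafting.

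The respiratory chain sits in the inner mitochondrial membrane. Complex I takes electrons from NADH and complex II from succinate, complex III passes them to cytochrome c, complex IV passes them on to oxygen, and ATP synthase uses the proton gradient that results. Most subunits are encoded in the nucleus and imported, a minority is encoded by mitochondrial DNA, and complex II is nuclear throughout. Neurons depend heavily on this pathway, whereas neural progenitors are known to rely more on glycolysis.

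After filtering, 4885 to 8363 human cells per library remained, with 11192237 to 55892222 unique molecular identifiers (UMIs, counted molecules). The median cell held 9847 UMIs in D0 and 1253 to 2759 in grafts. Mitochondrially encoded subunits took 7.17% of UMIs in PFC_4MPT and 2.44 to 3.99% in the other libraries. An unnamed cluster led by MTRNR2L genes, with 883 of its 1230 cells from PFC_4MPT, stood apart. Choroid plexus markers summed to 6153 CPM (counts scaled to a common library total) in D0 and to 5.10 to 12.4 CPM in grafts. Libraries shared 6 to 20 cell barcodes pairwise.

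In sum, the 95 members made up a similar share of the transcriptome before and after grafting. They took 2.25% of UMIs in D0 (95% interval 2.25 to 2.26%, exact Poisson, counting error only), 2.74 and 2.36% in the HIP and PFC grafts of 2MPT, and 2.24 and 2.47% in those of 4MPT. The stage means were 2.55% ± 0.270 (SD, n = 2) at 2MPT and 2.35% ± 0.161 (SD, n = 2) at 4MPT, so the difference between stages was smaller than the spread between sites. D0 lay inside the range of the grafts.

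What differed between D0 and grafts was the balance between complexes. The NDUFA, NDUFB and NDUFC subunits, mostly small accessory parts of complex I, supplied 20.5% of all member UMIs in D0 and 27.2 to 28.3% in grafts. Complex III went the other way, with 12.3% in D0 and 9.60 to 10.6% in grafts, as did complex II (1.18% against 0.747 to 0.960%) and complex IV (27.2% against 23.0 to 24.7%). ATP synthase (28.9% against 26.5 to 28.2%) and the NDUFS and NDUFV subunits, most of which form the catalytic core of complex I (8.49% against 7.85 to 8.35%), differed little. These fractions do not depend on the total by which a library is scaled. They are parts of the same sum, so a larger fraction of one group lowers those of the others. As a share of all UMIs, complex IV had 0.612% in D0, inside the 0.553 to 0.628% of grafts. Complex III had 0.277% in D0 and 0.230 to 0.263% in grafts. Some members overlap genes that only 1 of the annotations lists. With these members left out, the NDUFA, NDUFB and NDUFC fraction was 18.0% in D0 and 23.5 to 23.9% in grafts.

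**Figure D1:**
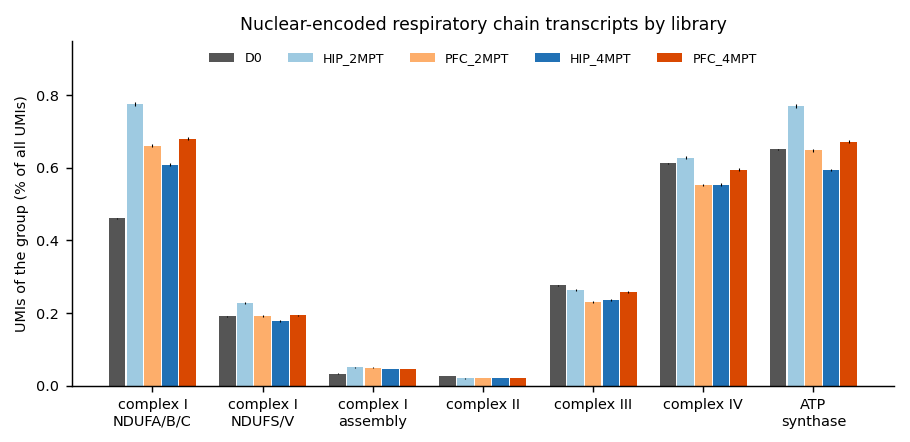
UMIs of each group of members as a percentage of all UMIs, by library, with exact Poisson 95% intervals. The 4 graft bars of the NDUFA, NDUFB and NDUFC group all stand above D0, and those of complex II all stand below it, while the bars of ATP synthase lie on both sides of D0.

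Of the 95 members, 87 averaged at least 10 CPM over the libraries and 65 were at or above 100 CPM in every library. The member of each complex with the highest mean over the 5 libraries is given here, and the order was not the same in every library. COX7C, a small subunit of complex IV, had the highest mean, with 1118 CPM in D0 and 876 to 950 CPM in grafts. ATP5F1E, the epsilon subunit of ATP synthase, had 756 CPM in D0 and 756 to 1067 CPM in grafts, and was above COX7C in HIP_2MPT. NDUFC2, an overlapped member, led the accessory subunits of complex I with 345 CPM in D0 and 568 to 850 CPM in grafts, and NDUFS5 led the NDUFS and NDUFV group with 551 and 554 to 763 CPM. In complex III the hinge protein UQCRH had 644 CPM in D0 and 413 to 507 CPM in grafts. In both libraries of 2MPT and in PFC_4MPT another member of this complex, UQCRQ or UQCR10, was above it. Complex II was the least abundant, and SDHC had 77.6 CPM in D0 and 56.4 to 63.2 CPM in grafts. SDHB was slightly higher than SDHC in both libraries of 2MPT. Among the assembly factors, NDUFAF2 had 75.3 CPM in D0, where NDUFAF3 was higher at 87.4 CPM, and 121 to 157 CPM in grafts. UMI counts here are not corrected for transcript length, so these are orders of molecules counted near the 3′ end. Among the 4 grafts, levels were close: the highest library exceeded the lowest by a median of 1.28 times over the 87 members and by less than 2 times for all of them.

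Between D0 and 2MPT, 26 of the 91 members tested were called (edgeR quasi-likelihood test, adjusted p under 0.05), 7 of them higher and 19 lower after grafting. Of all 19074 genes tested, 48.3% were called, 27.2% higher and 21.1% lower. D0 had no replicate, so the spread came from the graft libraries and D0 was assumed to vary like them. The p-values measure the spread between these libraries only, and in sums over a library fewer expressing cells and less RNA per cell cannot be told apart. The lower calls were spread over 5 complexes. Complex III had 5 of 9 members lower, complex II 3 of 4, complex IV 4 of 15, ATP synthase 3 of 18 and the NDUFA, NDUFB and NDUFC group 4 of 26. All 7 higher calls belonged to complex I, 6 to the NDUFA, NDUFB and NDUFC group and 1 to the assembly factors. None of the 11 NDUFS and NDUFV genes was called, and 0 of them reached an unadjusted p under 0.05.

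The directions depend on scaling. The normalization used (TMM) centres most genes, and the median log2(Fold change) over all genes was 0.07. With total UMIs in its place this median was 0.44, and 27 members were called, 16 higher and 11 lower, beside 33.3% of all genes higher and 13.0% lower. The higher calls then lay outside complex I too, with 5 in ATP synthase and 1 in complex III. Of the 26 members called with TMM, 18 were called under both scalings and none changed direction. The change of scaling raised the log2(Fold change) of members by nearly the same amount, with a median of 0.374. A difference larger than this shift could therefore not change direction, and higher calls could only grow. The same count over all genes was not made. Those lower under both were ATP5F1A, ATP5F1B, COX5A, COX6B2, COX7A2L, COX8C, NDUFB5, SDHA, UQCRB, UQCRC2 and UQCRHL, and those higher under both were NDUFA11, NDUFA13, NDUFA3, NDUFA7, NDUFAF6, NDUFB1 and NDUFB2. Cytosolic ribosomal protein transcripts took 24.4% of UMIs in D0 and a mean of 16.8% in grafts, and their part in this shift was not tested.

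ATP5F1A and ATP5F1B encode the alpha and beta subunits of the catalytic head of ATP synthase. ATP5F1A had 417 CPM in D0, 150 and 160 CPM in the HIP and PFC grafts of 2MPT, and 136 and 143 CPM in those of 4MPT. D0 thus stood alone above 4 similar grafts, and the log2(Fold change) at 2MPT was -1.78 (SE 0.26, adjusted p = 0.000346, edgeR). ATP5F1B followed with 460 CPM in D0 and 277, 250, 220 and 253 CPM in the grafts in the same order, a log2(Fold change) of -1.16 (SE 0.27, adjusted p = 0.00552, edgeR). Of the other subunits of the enzyme, ATP5MC2 alone was called lower (described with its paralogs). ATP5PF, in the peripheral stalk, had 319 CPM in D0 and 458 to 588 CPM in grafts (log2(Fold change) 0.39 at 2MPT, adjusted p = 0.307, edgeR).

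In complex III, the core protein UQCRC2 had 198 CPM in D0 and 91.5, 93.9, 108 and 106 CPM in HIP_2MPT, PFC_2MPT, HIP_4MPT and PFC_4MPT, a log2(Fold change) of -1.45 at 2MPT (SE 0.25, adjusted p = 0.00102, edgeR). UQCRB, which binds ubiquinone in this complex, had 632 CPM in D0, 255 and 276 CPM at 2MPT and 425 and 395 CPM at 4MPT. Its log2(Fold change) was -1.61 at 2MPT (SE 0.27, adjusted p = 0.000758, edgeR) and -0.92 at 4MPT (SE 0.27, adjusted p = 0.0157, edgeR), with both stages set against the same D0. The Rieske iron-sulfur protein UQCRFS1 fell as well, from 234 CPM to 147 and 139 CPM at 2MPT (log2(Fold change) -1.07, SE 0.28, adjusted p = 0.010, edgeR), a call that was lost with total UMIs. UQCRQ and UQCR10, small subunits, were not called, at 0.45 and -0.03 on the log2 scale.

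Complex II oxidizes succinate in the citric acid cycle and feeds its electrons into the chain. Its flavoprotein SDHA had 74.0 CPM in D0 and 43.3, 44.5, 45.9 and 42.6 CPM in HIP_2MPT, PFC_2MPT, HIP_4MPT and PFC_4MPT. Its log2(Fold change) at 2MPT was -1.11 (SE 0.25, adjusted p = 0.00483, edgeR). The membrane anchors SDHC and SDHD fell less, by 0.73 and 0.87 on the log2 scale (adjusted p = 0.0356 and 0.0236, edgeR), and both calls were lost with total UMIs in place of TMM, whereas that of SDHA was not. SDHB, the iron-sulfur subunit, had 59.7 CPM in D0 and 56.0 to 64.4 CPM in grafts (log2(Fold change) -0.25, adjusted p = 0.455, edgeR). At 4MPT, SDHD had 51.9 and 52.3 CPM against 55.1 CPM in D0 and was not called (adjusted p = 0.279, edgeR). SDHD is among the overlapped members, so its D0 level is uncertain.

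Among the other lower calls, COX7A2L, which links complexes III and IV into supercomplexes, had 342 CPM in D0 and 154 to 184 CPM in grafts, and its log2(Fold change) at 2MPT was -1.35 (SE 0.27, adjusted p = 0.00253, edgeR). NDUFB5, an accessory subunit of complex I, had 127 CPM in D0, 58.1 and 66.9 CPM at 2MPT and 88.2 and 94.2 CPM at 4MPT, with -1.38 at 2MPT (SE 0.26, adjusted p = 0.00171, edgeR) and -0.77 at 4MPT (SE 0.26, adjusted p = 0.0313, edgeR). In both genes every graft lay below D0.

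The higher calls were led by NDUFAF6, an assembly factor of complex I. It had 16.9 CPM in D0 and 67.1, 71.4, 90.5 and 73.4 CPM in HIP_2MPT, PFC_2MPT, HIP_4MPT and PFC_4MPT, which is 4.11 times as much at 2MPT on the CPM scale (log2(Fold change) 1.68, SE 0.29, adjusted p = 0.000967, edgeR). NDUFAF6 has the longest genomic span of the members, 220923 bases with introns. How intronic reads were handled is not given, and the part of span in this call was not tested. NDUFB2 had 178 CPM in D0 and 403 to 553 CPM in grafts (log2(Fold change) 1.13, SE 0.30, adjusted p = 0.0103, edgeR). NDUFA3, which lies just outside the 5 largest, had 165 CPM in D0 and 337 to 452 CPM in grafts (0.92, adjusted p = 0.0249, edgeR), and NDUFB1 had 147 CPM in D0 and 240 to 385 CPM in grafts (0.84, adjusted p = 0.0414, edgeR). All 3 are accessory subunits of complex I, and every graft lay above D0 in each.

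NDUFA11, NDUFA13 and NDUFA7, likewise accessory subunits, were also called higher, but with a limit. NDUFA11 had 157 CPM in D0 and 369 to 477 CPM in grafts (log2(Fold change) 1.14), NDUFA13 had 222 and 471 to 699 CPM (1.12), and NDUFA7 had 54.2 and 101 to 144 CPM (1.00). Each is overlapped on its strand by a gene that the annotation of D0 lists and that of grafts does not. Reads compatible with both genes are not counted by Cell Ranger, so the D0 level of these genes is uncertain. NDUFC2, SDHD, COX8A, COX6A1, COX6B2 and ATP5PO, described elsewhere, are overlapped in the same way. Of the 91 members tested, 15 were overlapped by a gene of only 1 annotation, and 6 of them were called, 3 in each direction. Over the other 76 members, 20 were called, 4 higher and 16 lower.

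**Figure D2:**
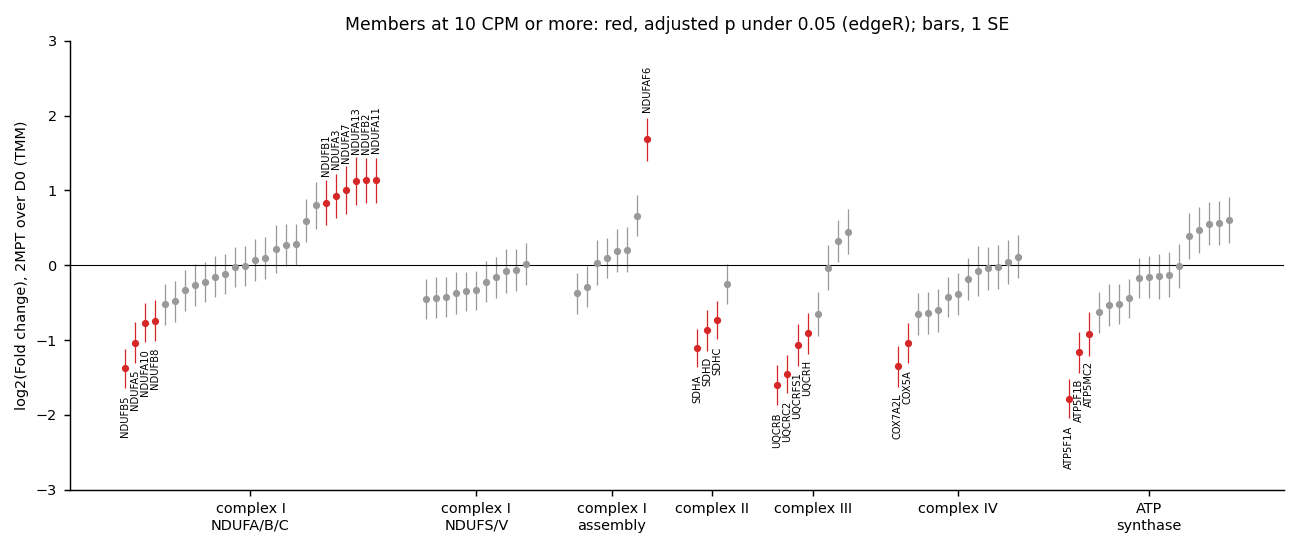
log2(Fold change) of 2MPT over D0 for the members with a mean of at least 10 CPM, ordered within each group, with bars of 1 SE. Red points, named, passed an adjusted p of 0.05 in edgeR. Those of complexes II, III and IV and ATP synthase all lie below 0, and those of the NDUFA, NDUFB and NDUFC group lie on both sides.

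At 4MPT, 27 of 91 members were called against the same D0, 6 higher and 21 lower, beside 50.1% of all genes (28.7% higher and 21.4% lower). Fewer members were called when HIP_4MPT or PFC_4MPT was left out, which left 1 library at 4MPT. The share of all genes called is not given for those fits.

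The comparison with D0 also mixes different cell types, so it was repeated within classes of cells named from marker genes. The neuron-like class joined clusters matched to markers of intermediate progenitors, glutamatergic neurons, inhibitory neurons or neurons in general. The progenitor-like class joined those matched to cycling progenitors or radial glia. In neuron-like cells, 21 of 91 members were called at 2MPT, 7 higher and 14 lower, beside 43.2% of all genes tested (26.2% higher and 17.0% lower). In progenitor-like cells, 19 of 88 were called, 8 higher and 11 lower, beside 36.2% (21.1% higher and 15.1% lower). Over all cells and in both classes 14 members were called, each in the same direction. These fits share D0, and the sums over all cells include both classes, so they are not independent. The same count over all genes was not made. The class fits were not run with total UMIs, with which NDUFA5 and UQCRFS1 were not called over all cells. ATP5F1A, ATP5F1B, COX7A2L, NDUFA5, UQCRB, UQCRC2, UQCRFS1 and UQCRHL were lower in both classes. NDUFA11, NDUFA13, NDUFA3, NDUFA7, NDUFAF6 and NDUFB2 were higher in both. ATP5F1A, for instance, had a log2(Fold change) of -1.75 in neuron-like cells and -1.73 in progenitor-like cells (adjusted p = 0.000511 and 0.000317, edgeR). SDHA was called in neuron-like cells (-1.03, adjusted p = 0.0105, edgeR) and not in progenitor-like cells (-0.81, adjusted p = 0.0547, edgeR), and that difference was not tested. Most neuron-like cells of D0, 1224 of 1909, sat in a cluster that held 4 cells from grafts. Leaving that cluster out gave 18 calls, 8 higher and 10 lower. Fewer members were called in both classes when either library of 2MPT was left out, which left 1 library at that stage. The share of all genes called is not given for the fits without this cluster or without a library.

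Motifs of the factors known to regulate many of these genes were looked for in RefSeq promoters (GRCh38.p14, 250 bases before to 50 after the gene start, both strands), which were matched for 77 members. The consensus of NRF1, whose matches stand in capitals below as runs that begin and end with GCGC, occurred in 23.4% of the members and in 6.98% of all 27305 genes with a promoter. CCGGAAG, of the ETS family that includes GABPA, occurred in 29.9% and 12.2%. AAGATGGCG of YY1 occurred in 13.0% and 2.14%, and TCAAGGTCA of ESRRA in 1.30% and 0.43%. The background was all genes with a promoter, not matched to the members in base composition. By call at 2MPT against D0, the NRF1 letters were in 4 of 14 lower members, 2 of 6 higher members and 12 of 55 others. The stretches below are parts of promoters of 3 lower members and 1 higher member that hold these letters. They are shown 5′ to 3′ on the strand of the gene, with motif letters in capitals. SDHA (chr5:218129-218286, + strand) holds 3 NRF1 copies, SDHD (chr11:112086738-112086823, + strand) an NRF1 copy and an ETS copy on the opposite strand, UQCRFS1 (chr19:29213152-29213207, - strand) and NDUFA3 (chr19:54102660-54102719, + strand) an NRF1 copy each.
SDHA: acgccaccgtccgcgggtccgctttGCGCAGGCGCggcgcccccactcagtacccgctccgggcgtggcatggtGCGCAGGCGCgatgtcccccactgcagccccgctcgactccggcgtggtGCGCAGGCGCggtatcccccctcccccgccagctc
SDHD: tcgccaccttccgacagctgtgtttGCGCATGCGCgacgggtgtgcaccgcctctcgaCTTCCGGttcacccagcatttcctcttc
UQCRFS1: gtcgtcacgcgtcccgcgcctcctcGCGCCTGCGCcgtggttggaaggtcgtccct
NDUFA3: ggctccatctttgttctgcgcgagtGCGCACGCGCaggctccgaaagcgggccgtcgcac
A match describes letters in these windows and was not tested for binding.

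Several subunits exist as paralogs with tissue-restricted forms, and in most pairs 1 form dominated. COX4I1 had 521 to 752 CPM in the 5 libraries, whereas its hypoxia-linked paralog COX4I2 had 0.268 CPM in D0, 0.0893 CPM in HIP_2MPT and no UMI in the other grafts. COX6A1 had 489 to 579 CPM, and the heart and muscle form COX6A2 had 1 UMI in D0 and 1 in PFC_4MPT. The muscle form COX7A1 had no UMI in any library, which allows up to 0.0537 CPM in D0 and 0.140 to 0.268 CPM in grafts, beside 494 to 679 CPM of COX7A2. COX7B had 251 to 299 CPM and COX7B2 0 to 0.280 CPM. NDUFA4 had 567 to 743 CPM, and NDUFA4L2, induced by hypoxia, 10.9 CPM in D0, 13.8 and 12.6 CPM at 2MPT and 7.46 and 7.47 CPM at 4MPT (4MPT against 2MPT, log2(Fold change) -0.76, adjusted p = 0.236, edgeR).

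The minor forms COX6B2 and COX8C, known chiefly from testis, were higher in D0 than in grafts, at low counts. COX6B2 had 138 UMIs in D0 (2.47 CPM) and 3, 5, 6 and 6 UMIs in HIP_2MPT, PFC_2MPT, HIP_4MPT and PFC_4MPT (adjusted p = 0.00212 at 2MPT, edgeR), and it is among the overlapped members. COX8C had 51 UMIs in D0 and 0, 1, 3 and 4 in the grafts (adjusted p = 0.00781 at 2MPT, edgeR). Their common forms differed little: COX6B1 had 441 CPM in D0 and 520 to 646 CPM in grafts, and COX8A 370 and 347 to 383 CPM. UQCRHL, a near copy of UQCRH, had 7.01 CPM in D0 and 1.63 to 2.23 CPM in grafts. As reads of such copies can be split between them, its level is uncertain.

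ATP synthase carries its membrane ring subunit c from 3 genes that encode the same mature protein. ATP5MC2 was the most abundant of them, with 947 CPM in D0 and 498 to 668 CPM in grafts, and fell at 2MPT by 0.92 on the log2 scale (adjusted p = 0.0238, edgeR). ATP5MC3 had 357 CPM in D0 and 279 to 314 CPM in grafts, a log2(Fold change) of -0.63 (adjusted p = 0.0766, edgeR). ATP5MC1 had 102 CPM in D0 and 172 to 218 CPM in grafts, 0.56 on the log2 scale (adjusted p = 0.135, edgeR). With total UMIs the call of ATP5MC2 was lost.

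**Figure D3:**
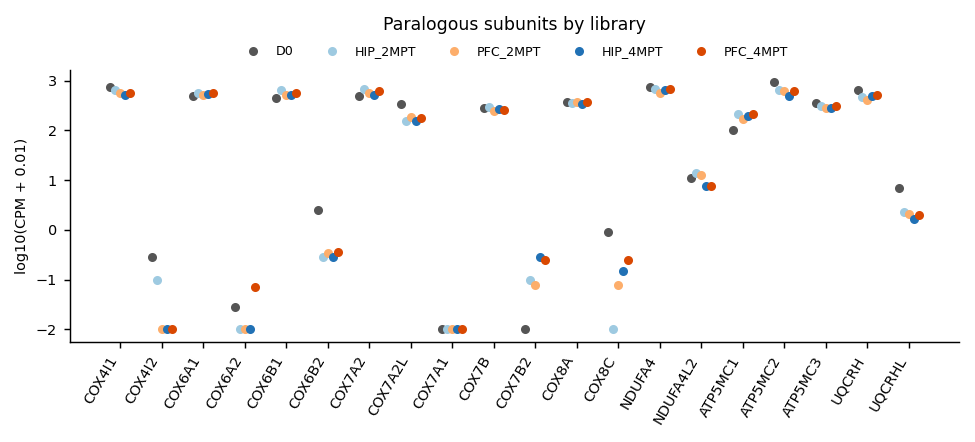
Levels of paralogous subunits in each library as log10(CPM + 0.01), so that a gene without UMIs lies at -2. The common forms lie between 2 and 3, and COX4I2, COX6A2, COX7A1, COX7B2 and COX8C lie below 0 in all 5 libraries.

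Between 2MPT and 4MPT no member passed the test over all human cells, 0 of 91 in edgeR and 0 in DESeq2, with 4 members at an unadjusted p under 0.05. Among all genes 2.40% were called. The 4 members were UQCRB (log2(Fold change) 0.68, adjusted p = 0.186), NDUFB5 (0.60, adjusted p = 0.239), NDUFAF5 (-0.65, adjusted p = 0.199) and NDUFA4L2. UQCRB and NDUFB5, both lower at 2MPT than in D0, thus lay nearer to D0 at 4MPT, in both sites, without passing the test. The median SE of a member was 0.23 on the log2 scale. On simulated counts the same test found 69 of 100 genes changed 2-fold and 100 of 100 changed 4-fold, so a smaller change could be missed. Neuron-like cells gave 0 calls of 88 members (2 at an unadjusted p under 0.05, 0 in DESeq2) beside 1.13% of all genes, and progenitor-like cells 0 of 87 (1 and 0) beside 0.794%.

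Between the sites, with the stage in the model, 0 of 89 members were called over all human cells (edgeR), 0 had an unadjusted p under 0.05 and 0 were called by DESeq2. Only 0.0827% of all genes were called in this comparison, which had 1 residual degree of freedom. This fit averages the site difference over both stages, and its residual is how that difference changes between them. The summed member share was higher in HIP at 2MPT and in PFC at 4MPT. Opposite differences cancel in such a fit, so 0 calls do not show that the sites were alike. The largest fitted difference of a member was 0.38 on the log2 scale, in ATP5MGL, which had only 7 to 14 UMIs per graft library. Next came NDUFA7 with 0.35. Calls of members were also 0 of 88 in neuron-like cells and 0 of 86 in astrocyte-like cells (0 at an unadjusted p under 0.05 in each, and 0 in DESeq2), beside 0.139% and 0.136% of all genes.

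Between the stages, the summed share of the members went from 2.74% to 2.24% in HIP and from 2.36% to 2.47% in PFC. Of the 87 members at 10 CPM or more, 48 (55.2%) were lower at 4MPT in HIP and higher in PFC, 3 showed the reverse, and 16.6% of all 9958 genes at that level were lower in HIP and higher in PFC. With 1 library per site and stage this could not be tested. HIP_2MPT, the library with the highest member share, also had the lowest median of UMIs per cell, 1253, whose part in this was not tested. In cells with over 1000 UMIs the shares were 2.75 and 2.36% in the HIP and PFC grafts of 2MPT, and 2.25 and 2.52% in those of 4MPT. Without the cluster led by MTRNR2L genes they were 2.74%, 2.36%, 2.24% and 2.52%, in the same order.

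Across the 20 clusters, which were built without the members and without mitochondrially encoded genes, the member share varied more than across libraries. The cluster led by MTRNR2L genes had the lowest, 1.24% in HIP_4MPT and 1.39% in PFC_4MPT. Its cells in PFC_4MPT held 11.8% of mitochondrially encoded subunits, and their median was 888 UMIs. High shares were found in a small oligodendrocyte-lineage-like cluster led by APOD, PCDH15 and PDGFRA, with 2.89% in HIP_4MPT and 3.1% in PFC_4MPT, and in a neuron-like cluster led by NEUROG1 and EOMES, with 3.17% in HIP_2MPT, 2.87% in PFC_2MPT, 3.07% in PFC_4MPT and 2.46% in D0. A larger oligodendrocyte-lineage-like cluster, led by OLIG1, EGFR and OLIG2, had 1.98% and 2.33% in the same libraries.

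Neuron-like clusters fell into distinct levels that held in every graft. A cluster led by BHLHE22 and NEUROD6, transcription factor genes of excitatory cortical neurons, had 2.90%, 2.48%, 2.34% and 2.54% in HIP_2MPT, PFC_2MPT, HIP_4MPT and PFC_4MPT. One led by GNG3, STMN2 and TUBB3 had 3.12%, 2.94%, 2.57% and 2.66%. A cluster led by KCNH8 and CNTNAP2, which encode a potassium channel and an adhesion protein of axons, had 2.39%, 1.88%, 1.83% and 1.99%, and one led by NKAIN2 had 2.53%, 1.92%, 1.83% and 2.01%. In each library both of the latter lay below both of the former. A cluster led by PPP1R17 and EOMES, the latter a gene of intermediate progenitors, had 2.58 to 2.94%. Over all libraries the median cell held 1613 to 1882 UMIs in the first 4 of these clusters and 2119 in the last. Since clusters are drawn from these cells, no test was made.

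**Figure D4:**
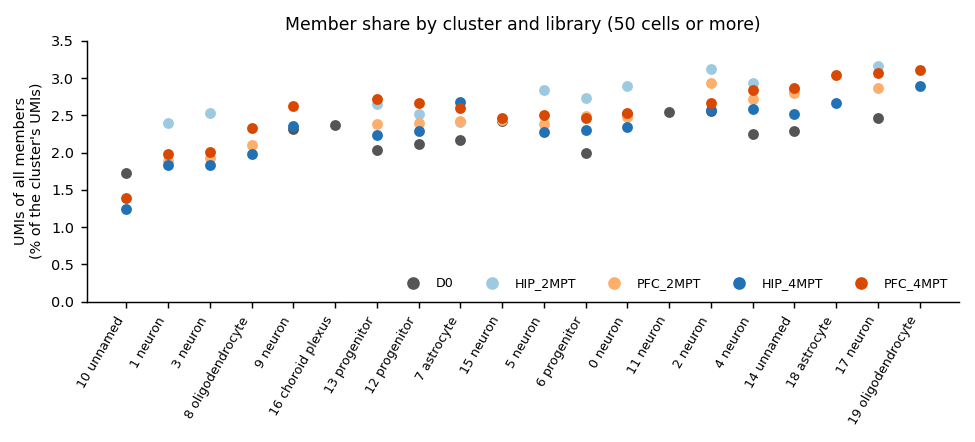
UMIs of all members as a percentage of the UMIs of each cluster, by library, for clusters with at least 50 cells of a library, ordered by their median. The unnamed cluster 10 lies lowest, neuron-like clusters 1 and 3 lie below the other neuron-like clusters in each graft library, and oligodendrocyte-lineage-like cluster 19, with 2 libraries only, stands last in this order.

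Pooled by class, the member share averaged 2.44% ± 0.248 (SD, n = 4 graft libraries) in neuron-like, 2.48% ± 0.164 (n = 4) in progenitor-like and 2.56% ± 0.159 (n = 4) in astrocyte-like cells. These SDs are between libraries and do not measure differences between classes of the same library. In HIP_2MPT, PFC_2MPT, HIP_4MPT and PFC_4MPT, neuron-like cells had 2.77, 2.33, 2.19 and 2.49%. In the same order, progenitor-like cells had 2.61, 2.42, 2.28 and 2.62%, and astrocyte-like cells 2.42, 2.42, 2.68 and 2.71%. Both lay below neuron-like cells in HIP_2MPT and above them in each other graft, which was not tested. In D0 the member share was 2.49% in neuron-like, 2.02% in progenitor-like and 2.37% in choroid-plexus-like cells. As a share of total UMIs, progenitor-like cells of each graft, at 2.28 to 2.62%, thus lay above those of D0. The neuron-like cells of grafts, at 2.19 to 2.77%, lay around theirs. With TMM, members of progenitor-like cells showed no such rise at 2MPT against D0. Their median log2(Fold change) was -0.0005, with 44 of 88 above 0 and, as given above, 8 called higher and 11 lower.

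Single members differed between classes more than the sums. Neuron-like cells here include intermediate progenitors. Set against neuron-like cells of the same library, 27 of 86 members were higher in progenitor-like cells in all 4 grafts (31.4%, beside 27.8% of all genes) and 22 were lower in all 4 (25.6%, beside 34.3%). Among members with a mean of at least 10 CPM and 1 sign in all 4 grafts, the largest ratios belonged to assembly factors: NDUFAF8 was 0.81 ± 0.20 higher on the log2(CPM + 1) scale (SD, n = 4) and NDUFAF3 0.78 ± 0.20. COX8A came next and varied least, 0.74 ± 0.03, with 582, 554, 515 and 619 CPM in progenitor-like cells of HIP_2MPT, PFC_2MPT, HIP_4MPT and PFC_4MPT against 346, 337, 311 and 359 CPM in neuron-like cells. In D0 the classes had 356 and 346 CPM of COX8A. NDUFA7 (0.64 ± 0.20) and NDUFA6 (0.63 ± 0.14), overlapped members like COX8A, completed the 5 highest. The 5 lowest by the same rule were NDUFAF2 (-0.60 ± 0.15), ATP5MC1 (-0.51 ± 0.20), COX7A2 (-0.47 ± 0.10), NDUFC2 (-0.44 ± 0.10) and NDUFAF4 (-0.44 ± 0.42).

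Astrocyte-like cells had 21 of 86 members higher than neuron-like cells in all 4 grafts (24.4%, beside 31.5% of all genes) and 15 lower (17.4%, beside 25.4%). By the same rule NDUFAF8 again led (1.04 ± 0.30), followed by the complex I subunits NDUFB5 (0.95 ± 0.37), NDUFB3 (0.80 ± 0.32), NDUFC1 (0.72 ± 0.17) and NDUFA7 (0.71 ± 0.36). COX7A2 was lowest by that rule (-0.72 ± 0.11), with 356 to 442 CPM against 615 to 724 CPM in neuron-like cells, and then NDUFAF5 (-0.64 ± 0.34), ATP5PO (-0.55 ± 0.13) and NDUFB11 (-0.52 ± 0.07). Most of this class was a cluster that also expressed radial glia markers, whose list scored higher there than that of astrocytes. At a finer resolution of 1.6 most of it was counted as progenitor-like, and the astrocyte-like class had 2 members higher and 24 lower in all 4 grafts. None of the 5 highest members then kept 1 sign in all 4 grafts, and the mean of NDUFA7 turned to -0.47 and that of NDUFC1 to -0.07, with 0.71 for NDUFAF8, 0.26 for NDUFB3 and 0.16 for NDUFB5. NDUFAF5 was at -0.06, while COX7A2, ATP5PO and NDUFB11 stayed lower in all 4. For NDUFA4L2, which lay under 10 CPM on average in these classes, astrocyte-like cells had 35.7 CPM in D0 and 0.894 to 4.24 CPM in grafts, and neuron-like cells 10.9 and 9.10 to 15.4 CPM. The astrocyte-like class held only 86 cells with 1035687 UMIs in D0, and 477247 to 2744870 UMIs in grafts. Its levels of this gene therefore rest on few UMIs, and the difference was not tested.

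**Figure D5:**
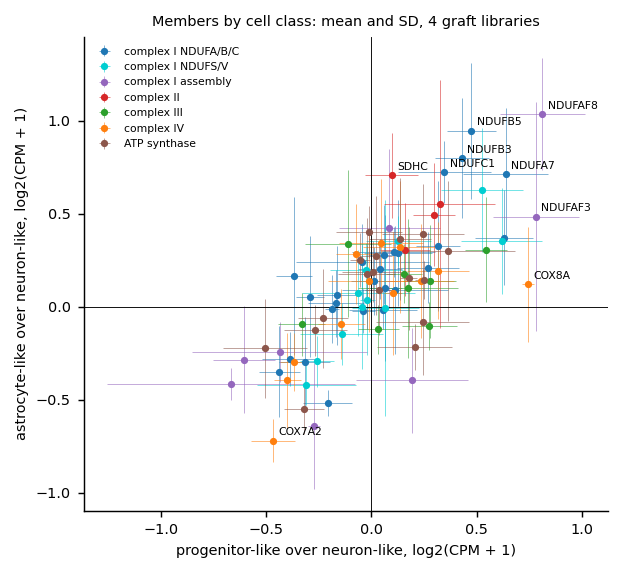
Mean log2 ratio of each member in progenitor-like (x axis) and astrocyte-like cells (y axis) over neuron-like cells of the same library, with SD over the 4 graft libraries. NDUFAF8 lies highest on both axes, COX8A stands out to the right, and COX7A2 lies lowest on the y axis.

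Within astrocyte-like cells, the member share was 2.42% in both 2MPT libraries and 2.68% and 2.71% in HIP_4MPT and PFC_4MPT. In the cluster that all grafts shared, it was 2.41% and 2.42% at 2MPT and 2.68% and 2.60% at 4MPT. The median astrocyte-like cell held 1202 and 2600 UMIs in HIP_2MPT and PFC_2MPT, and 4158 and 2791 in HIP_4MPT and PFC_4MPT. The part of this depth was not tested. Of the 86 members tested in this class, 67 had a higher fitted level at 4MPT, with a median log2(Fold change) of 0.22, whereas the median of all genes was -0.01. None was called (edgeR, 7 at an unadjusted p under 0.05, 0 in DESeq2) beside 2.96% of all genes, and the smallest adjusted p belonged to SDHD (0.136). Without PFC_2MPT 2 members were called higher, and without PFC_4MPT 1. The share of all genes called is not given for these fits or for resolution 1.6, so the counts have no background beside them. At resolution 1.6 there were 7 of 85 members, all higher: NDUFB5, NDUFC1, NDUFA5, UQCRB, NDUFA12, NDUFV2 and NDUFA7. The class there joined clusters that the stages filled differently: one held 72 and 65 cells of HIP_2MPT and PFC_2MPT and 135 and 99 of HIP_4MPT and PFC_4MPT, and the other 10 and 2, and 179 and 137.

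Other genes of the pathway were also called in both directions in 2MPT against D0, to be read beside the 48.3% of all genes called (27.2% higher and 21.1% lower). CYCS, cytochrome c, fell (265 CPM in D0, 128 and 132 CPM at 2MPT, log2(Fold change) -1.38, adjusted p = 0.00264, edgeR), and ATP5IF1, the inhibitor of ATP synthase, was not called (adjusted p = 0.0876, edgeR). Of 40 assembly factors outside the rule, 14 were called, 6 higher and 8 lower. NUBPL, which delivers iron-sulfur clusters to complex I, was among the higher ones (13.7 CPM in D0, 36.6 and 46.2 CPM at 2MPT). Of 16 genes of the citric acid cycle and pyruvate dehydrogenase, 7 were lower, among them citrate synthase CS (58.5 against 37.4 and 22.7 CPM), and only OGDH was higher (12.2 against 51.4 and 40.1 CPM). Of 12 regulators of mitochondrial biogenesis, 6 were called. The coactivator PPARGC1A was lower (4.28 against 1.25 and 0.793 CPM), as were PPARGC1B, POLRMT and YY1, and NRF1 (7.43 against 45.2 and 47.4 CPM, log2(Fold change) 2.28, adjusted p = 0.000185, edgeR) and ESRRA were higher. Between 2MPT and 4MPT, and between the sites, 0 genes of these lists were called over all human cells (edgeR). All calls of these lists use TMM, and those with total UMIs are not given.

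The summed share of the 13 mitochondrially encoded subunits did not follow that of the members. It was 1.77 times that of the members in D0, 1.41 and 1.03 times in the HIP and PFC grafts of 2MPT, and 1.37 and 2.91 times in those of 4MPT. At 2MPT, 6 of 13 were called against D0, beside 48.3% of all genes (27.2% higher and 21.1% lower). With TMM, MT-CO1, MT-ND1, MT-ND2, MT-ND4 and MT-ND5 were lower and MT-ATP8 higher. As a share of all UMIs, the 13 had 3.99% in D0, 3.85% in HIP_2MPT and 2.44% in PFC_2MPT. Their calls with total UMIs are not given. At 4MPT against the same D0, 2 of 13 were called, MT-ATP8 and MT-ND4L, both higher, and 0 were lower. This stands beside 50.1% of all genes (28.7% higher and 21.4% lower). The median log2(Fold change) of the 13 was -0.57 at 2MPT and 0.07 at 4MPT. MT-ATP8 overlaps MT-ATP6 on the mitochondrial genome, and its 13.1 CPM in D0 against 495 to 1699 CPM in grafts cannot be told apart from the change of annotation and Cell Ranger release.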

How the data were processed

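Droplet libraries of 5 conditions were analysed. The authors deposited UMI counts per gene and cell, made with Cell Ranger on a GRCh38 (hg38) reference, 3.1.0 for D0 and 5.0.0 for grafts per the file headers (3.1 for all in the submitters' processing notes), and graft counts on a dual human-mouse reference. The handling of intronic reads is not given in the sources used here. Cells with over 500 UMIs, over 500 genes, a log10 ratio of genes to UMIs over 0.80, a mitochondrial share under 0.15 and, in grafts, a human share over 0.80 were kept, and no doublet caller was run. Cells were clustered in R 4.3.3 (Seurat 5.3.0, normalized by sctransform 0.4.2) on variable genes without the members, at resolution 0.8, and named from marker lists. Counts were summed per library and class and tested over all genes with edgeR 4.0.16 (quasi-likelihood test, TMM, Benjamini-Hochberg adjustment, threshold 0.05). DESeq2 1.42.0 was an alternative. On simulated counts of 2MPT against D0, with a spread fixed beforehand and only upward changes, 56 of 100 genes changed 2-fold and 99 of 100 changed 4-fold were found.

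Comparisons between classes and clusters are descriptive. Named were the 5 largest calls per direction against D0 at a mean of at least 10 CPM, the paralog sets, complex II, the highest member of each complex and the 5 largest class ratios per direction, except for a result that is not reported here. ATP5F1B, ATP5PF, UQCRFS1, UQCRQ, UQCR10, NDUFA3, NDUFB1, the members at an unadjusted p under 0.05 and the printed promoters were chosen after their values were seen. Members and lists were chosen with earlier results of these data known. Columns of samples outside the series numbered 0.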

Additional observations from a re-analysis of the deposited data

Results flagged for a closer look

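The summed share of the members moved in opposite directions between 2MPT and 4MPT in the 2 sites, by -0.498 percentage points in HIP and by 0.11 percentage points in PFC. The difference was not tested, since each site had 1 library per stage.

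Symbols that share a prefix with the members but were left out also had UMIs. Over the libraries that list them, the antisense genes NDUFV2-AS1 and NDUFB2-AS1 had 1670 and 199 UMIs, the divergent transcript NDUFA6-DT 1290 UMIs (listed for grafts only) and the read-through ATP5MF-PTCD1 4 UMIs (listed for D0 only). NDUFB2-AS1 had 117 UMIs in D0 and 16 to 31 in each graft.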

How the results depend on the processing

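Of the summary results, 82 alternatives kept the count within 1.5 times or the value within its error and 11 did not. Many of the 82 set 0 calls against 0 calls, and the rule on counts ignores direction. With total UMIs, 2MPT against D0 kept its count, while 7 higher and 19 lower members became 16 higher and 11 lower. The 5 largest calls per direction against D0 at a mean of at least 10 CPM kept direction and call in all 100 of their alternatives. They were chosen by size in these data, and every alternative used the same D0 library. NDUFA11, NDUFA13 and NDUFA7 among them are overlapped members, and no alternative changed the annotation. The calls of SDHC, SDHD, ATP5MC2, UQCRFS1, UQCRH, NDUFA5, NDUFA10 and NDUFB8 were lost with total UMIs. Leaving out 1 graft library at a time gave 16 to 23 members called in 4MPT against D0, and in 2MPT against D0 18 to 28 over all cells, 10 to 24 in neuron-like cells and 12 to 22 in progenitor-like cells. In astrocyte-like cells, 4MPT against 2MPT gave 0 to 2 when a library was left out. At resolution 1.6 it gave 7, and there 2 members were higher and 24 lower in astrocyte-like than in neuron-like cells in all 4 grafts. The class then held fewer cells and other clusters, and the cause was not tested. The share of all genes called is not given for these alternatives. With mitochondrially encoded and MTRNR2L genes out of the total, the member share of D0 was 2.346%. The graft site as a replicate block in 4MPT against 2MPT gave 0 calls. PFC against HIP could not be fitted with a library left out, as no residual degree of freedom remained. Alternatives without a cluster, without overlapped members or with graft libraries only were chosen after seeing the data. With 1 library per condition, changes under 2-fold are poorly resolved, and D0 had no replicate.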

Other observations

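Members that were lower at 2MPT than in D0 had longer transcripts than the others. The median spliced length (summed exons of the canonical transcript of each gene) was 1759 bases in the 19 lower members, 575 bases in the 7 higher members and 758 bases in the 65 that were not called. Across the 91 members, log2 spliced length and log2(Fold change) had a Pearson r of -0.232 and a Spearman rho of -0.35, and across 19010 genes of all kinds -0.289 and -0.201. For log2 genomic span, which includes introns, they were 0.155 and -0.00438 across the members, and 0.178 and 0.202 across all genes. These are descriptions across genes, which are not independent replicates and share the same libraries. The part of length or span in the calls was not tested.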
